A study of Mus musculus with 16 samples.

Results

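The genes described here are the nuclear genes of the oxidative phosphorylation chain, chosen by symbol: names that start with Nduf and a subunit letter, Sdha to Sdhd, and names that start with Uqcr, Cox4 to Cox8 or Atp5, without those marked as pseudogenes. This gave 91 of the 53700 genes listed for each library: 42 of complex I, 4 of complex II, 8 of complex III, 19 of complex IV and 18 of complex V. RNA was measured in microglia, the macrophages that live in the brain, sorted from whole brains. The mice were labelled as knockout (KO) for Ercc1, a gene of DNA repair, or as wild type (WT). There were 4 libraries in each of 4 groups, WT and KO at 6 weeks and WT and KO at 12 weeks of age, all on a cross of C57Bl6J and FVB. The cells were sorted as DAPI-negative, CD11b-high, CD45-intermediate and Ly6c-negative. Each 6-week group had 2 libraries labelled male and 2 labelled female, each 12-week group had 3 and 1, and sex was a term of the model. The labels do not say how the Ercc1 allele was made, nor that each library is 1 mouse, and the title of 1 WT library at 12 weeks carries 2 numbers (5_6). P values therefore measure the spread between these libraries.

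Oxidative phosphorylation takes place in the inner mitochondrial membrane. Complex I takes electrons from NADH and complex II takes them from succinate, complex III passes them from ubiquinol to cytochrome c, and complex IV hands them to oxygen. Complexes I, III and IV pump protons across the membrane, and complex V, the ATP synthase, uses their return to make ATP. Complexes I, III, IV and V also hold subunits encoded by mitochondrial DNA, while all of complex II is encoded in the nucleus. In microglia the balance between this pathway and glycolysis is known to differ between resting and activated cells.

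Levels are CPM, a gene's count as a share of the library total, with totals scaled by TMM, a factor that evens out differences in RNA composition. Total counts per library ran from 7882182 to 22142972, and the 12-week KO group was the shallowest, with 7882182 to 9653663. Ercc1 had 13.5 to 30.5 CPM in 6-week WT against 2.82 to 4.53 in 6-week KO, and 7.45 to 49.1 in 12-week WT against 0.424 to 6.76 in 12-week KO, with no overlap at either age. On principal components of all genes tested, the 12-week WT library 3 stood apart on the second at -97.1 (10% of the variance), and the 12-week WT library 8 at -77.9 and the 12-week KO library 4 at -47.9 stood apart on the third (9.28%). All 12 microglia markers had counts in every group, with summed levels of 58290 to 82130 CPM that were lowest in 12-week KO (58290 to 60960). The 7 markers of border-associated macrophages summed to 51.0 to 94.2 CPM at 6 weeks in WT and 129 to 291 in KO, then 7.77 to 54.1 at 12 weeks in WT and 112 to 186 in KO. The monocyte markers (6 listed) summed to 1.08 to 11.4 CPM in WT and 14.8 to 31.5 in KO at 12 weeks, and the endothelial and mural markers (8 listed) to 53.8 to 81.6 in WT and 11.7 to 44.3 in KO at 6 weeks. The B cell markers (5 listed, with counts for 1 to 3 of them in a group) summed to 66.7 to 92.1 CPM in WT and 29.6 to 57.6 in KO at 12 weeks. The monocyte, endothelial and mural, and B cell lists each overlapped between genotypes at the other age. The astrocyte list (238 to 413 CPM over all groups) and the oligodendrocyte list (125 to 264) overlapped at both ages. So did the lists of neurons (44.5 to 190), erythroid cells (2.37 to 110), neutrophils (0 to 62.2) and T and NK cells (0 to 3.73). The part of these cells in the results below was not tested. Fewer cells of a type and less RNA per cell cannot be told apart in bulk samples.

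Promoter sequences were at hand from RefSeq (GRCm38.p6) for 66 of the 81 members that could be tested, matched by symbol, and 3 are shown: Uqcrh and Atp5j, which rose in KO at 12 weeks, and Cox6a1, which passed there with DESeq2 only. Each is the 250 bases before an annotated start, 5′ to 3′ on the gene's own strand. Capitals mark matches, on either strand, to motifs known from respiratory chain promoters: the NRF1 core GCGCATGCG and its shorter part TGCGCA, the ETS core CCGGAAG that GABPA binds, and the YY1 core AAGATGGCG. No sequence is shown for Cox4i1, which has no entry. Uqcrh (chr4:116075071-116075320, minus strand) holds 1 ETS core in reverse, Atp5j (chr16:84834977-84835226, minus strand, 1 of its 2 annotated starts, the other without a match) holds a YY1 and an ETS core, and Cox6a1 (chr5:115348959-115349208, minus strand) holds NRF1 cores that overlap on both strands, the shorter part and an ETS core in reverse.
Uqcrh: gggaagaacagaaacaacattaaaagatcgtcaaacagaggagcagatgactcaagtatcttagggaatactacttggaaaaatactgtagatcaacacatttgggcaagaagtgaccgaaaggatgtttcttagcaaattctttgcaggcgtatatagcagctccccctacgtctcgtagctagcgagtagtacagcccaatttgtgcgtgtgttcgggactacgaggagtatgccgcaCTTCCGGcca
Atp5j: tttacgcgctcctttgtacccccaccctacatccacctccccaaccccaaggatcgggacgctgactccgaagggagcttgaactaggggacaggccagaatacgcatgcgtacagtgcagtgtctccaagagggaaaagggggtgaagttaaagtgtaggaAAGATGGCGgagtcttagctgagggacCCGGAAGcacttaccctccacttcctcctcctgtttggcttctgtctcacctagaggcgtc
Cox6a1: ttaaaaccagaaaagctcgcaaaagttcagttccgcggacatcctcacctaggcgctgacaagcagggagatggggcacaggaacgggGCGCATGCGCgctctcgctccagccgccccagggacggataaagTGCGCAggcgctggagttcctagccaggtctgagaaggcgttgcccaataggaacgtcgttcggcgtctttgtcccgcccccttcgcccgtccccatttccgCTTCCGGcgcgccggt

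Over windows of 300 bases (250 before and 50 after the start), with overlapping matches allowed, at least 1 of the 4 motifs was present for 36 of the 66 members (54.5%), against 18.6% of all 27025 genes in the table. The NRF1 core was present for 8 members (12.1% against 1.95%), the shorter part for 18 (27.3% against 8.79%), the ETS core for 17 (25.8% against 9.93%) and the YY1 core for 7 (10.6% against 1.64%). These are letter matches without a test, and base composition was not matched.

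Most of the chain was well covered in microglia. Of the 91 members, 81 passed the filter on low counts (38 of complex I, 4 of II, 8 of III, 14 of IV and 17 of V). The other 10 were close copies or forms best known from other tissues, and 3 of them had no count at all. Cox4i2, the alternative form of subunit 4, had 7 counts over all 16 libraries, and Cox7a1, Cox7b2 and Cox8b, forms known from muscle or testis, had 57, 7 and 18. Cox8c, a testis form, had none. Ndufa4l2, a relative of Ndufa4 known from hypoxia, had 25. Ndufa11b, Ndufb4c, Ndufb11b and a second Atp5o identifier were the remaining untested members. The ATP synthase inhibitor gene is listed as Atpif1, which the pattern does not match, with means of 145 CPM at 6 weeks in WT and 150 in KO, then 169 at 12 weeks in WT and 191 in KO. The pattern found no Uqcrhl, a close copy of Uqcrh.

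Per kilobase of transcript, and as a mean over the 16 libraries, the leading genes of each complex were Cox4i1 (205 CPM per kb), Cox6a1 (188) and Cox6b1 (153) in complex IV, Sdhb (175) and Sdha (115) in complex II, and Uqcrc1 (174) and Uqcr10 (131) in complex III. Atp5c1 (145) and Atp5b (130) led complex V, and Ndufs8 (135) and Ndufb10 (123) led complex I. Cox6a2, the form of subunit 6A known from heart and muscle, reached 13.8 CPM per kb, and Cox6b2, the testis form of 6B, 2.002. Of the 3 genes that encode the same c subunit of the ATP synthase ring, Atp5g3 (70.8) was above Atp5g1 (5.88) and Atp5g2 (3.94). Counts named as pseudogenes took 2.42% to 2.73% of pseudogene and member counts together in the 4 groups, but the larger part for Ndufs5 (73.2%), Ndufa12 (65.9%) and Cox5b (63.7%), and 38.3% for Atp5pb. The values of these 4 genes are uncertain for that reason.

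By summed level, complex IV had the highest ratios between groups of the 5 complexes. The sum of its 19 nuclear genes was 531 ± 20.6 CPM (SD, n = 4) at 6 weeks in WT and 693 ± 65.9 in KO, then 699 ± 51.2 at 12 weeks in WT and 911 ± 61.3 in KO. KO was 1.304 times WT at 6 weeks and 1.302 times at 12 weeks, and 12 weeks was 1.31 times 6 weeks in KO and 1.32 times in WT. In all 4 of these comparisons the 4 libraries of one group lay above all 4 of the other. Sums and levels in CPM are not adjusted for sex, whose balance differs between the ages. No p is given for these sums, since the members were chosen with earlier results known.

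**Figure D1:**
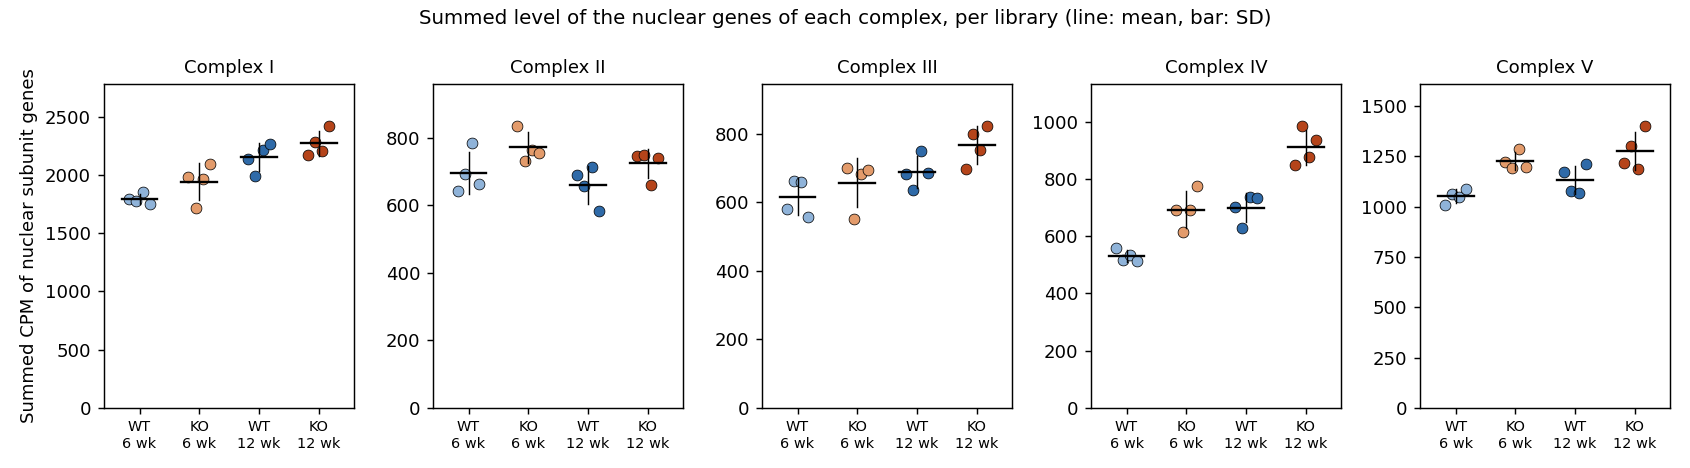
Summed CPM of the nuclear genes of each complex (y axes, each from 0) in the 4 groups, 1 point per library, with the mean as a line and the SD as a bar. The complex IV points climb from 514 to 559 CPM in 6-week WT to 848 to 985 in 12-week KO, while complex II spans 582 to 835 over all 16 libraries with no overlap-free pair of groups in the 4 comparisons.

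Ratios of the other complexes lay closer to 1. Complex I summed to 1795 ± 40.3 CPM at 6 weeks in WT and 1942 ± 159 in KO, then 2155 ± 117 at 12 weeks in WT and 2272 ± 112 in KO, so that the ages were apart in both genotypes (1.17 times in KO and 1.20 times in WT) and the genotypes overlapped at both ages. Complex V was apart only between 6-week KO (1225 ± 44.7 CPM) and 6-week WT (1052 ± 33.2), a ratio of 1.16. The sums of complex II and complex III overlapped in all 4 comparisons. The mean sum of complex II was lower at 12 than at 6 weeks, at 0.939 times in KO and 0.949 times in WT, and with each member weighing the same the ratio was 0.934 in KO and turned to 1.054 in WT. The sums lean on the most abundant genes: by that equal weighting, the complex V ratio with age was 1.21 in both genotypes in place of 1.04 in KO and 1.08 in WT.

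At 12 weeks, 3 members rose in KO and none fell, by edgeR's quasi-likelihood test with Benjamini-Hochberg adjustment over all 17090 genes tested: Cox4i1, Uqcrh and Atp5j, 1 each from complexes IV, III and V. Of all genes tested, 2.98% passed in either direction and 2.03% passed as higher in KO, which is 3.70% of the 81 members for the same count. Without adjustment, 11 members were higher at p under 0.05 (7.66% of all genes) and 1 was lower (6.7%). The log2 change was above 0 for 64 of 81 (48% of all genes), and the median was 0.18 for the members and -0.03 for all genes. For 9 members all KO libraries lay above all WT libraries (5.13% of all genes), and for 0 they lay below (3.07%). DESeq2 called 4 members, the same 3 and Cox6a1, which is a smaller share of the members than the 6.88% it called of all genes with an adjusted p.

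At 6 weeks, 0 of the 81 members passed with edgeR's quasi-likelihood test, where 0.872% of all genes did. DESeq2 called 3, Cox4i1, Atp5j and Cox6a1, beside 2.76% of all genes to which it gave an adjusted p. Without adjustment, 8 members were higher in KO at p under 0.05 (4.65% of all genes) and 0 were lower (2.67%). As at 12 weeks, 64 of 81 changes were above 0 (48.2%), with a median of 0.20 against -0.02 for all genes. Complex IV had the highest median, 0.40, with 14 of 14 tested members above 0, against 0.13 for complexes I and II, 0.20 for complex III and 0.23 for complex V. KO libraries lay above WT libraries for 10 members (4.92%) and below for 0 (2.96%).

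With age more members had a log2 change above 0 and none passed. In KO, 0 members passed with edgeR's quasi-likelihood test between 12 and 6 weeks (0.0234% of all genes, 4 genes), and in WT also 0 (0.0117%, 2 genes). Without adjustment, 24 members were higher in KO at 12 weeks (3.59% of all genes) and 2 lower (5.21%), and 20 were higher in WT (3.09%) and 1 lower (4.35%). Changes above 0 numbered 68 of 81 in KO (48.2% of all genes) and 73 of 81 in WT (48.6%), with medians of 0.36 and 0.34 for the members and -0.02 for all genes in both. By complex the median in KO was 0.38 for I, -0.10 for II, 0.51 for III, 0.37 for IV and 0.36 for V, and in WT 0.37, 0.17, 0.20, 0.36 and 0.29. The ages did not overlap for 12 members higher in KO (3.05%) and 1 lower (3.51%), and for 18 higher in WT (2.31%) and 1 lower (3%). DESeq2 called 5 members in KO (Atp5e, Atp5j, Cox4i1, Ndufc2 and Uqcrh) and 2 in WT (Cox6b1 and Uqcr10), beside 2.83% and 0.893% of all genes with an adjusted p. Without the 12-week WT libraries 3 and 8, only 5 members were higher in WT at an unadjusted p under 0.05 and the median was 0.24.

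The genotype effect was not shown to differ between the ages. In the test of that difference, 0 members passed (0.00585% of all genes, 1 gene, by edgeR; 0 members by DESeq2, which called 0.315% of all genes). Without adjustment 1 member had a larger effect at 12 weeks (2.18% of all genes), Uqcrh, and 2 had a smaller one (2.56%), Sdhc and Cox6b1. The difference was above 0 for 40 of 81 members (49.7% of all genes), with a median of 0.00. The 4 comparisons of groups share libraries pairwise, so their values are given side by side and not as support for each other.

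**Figure D2:**
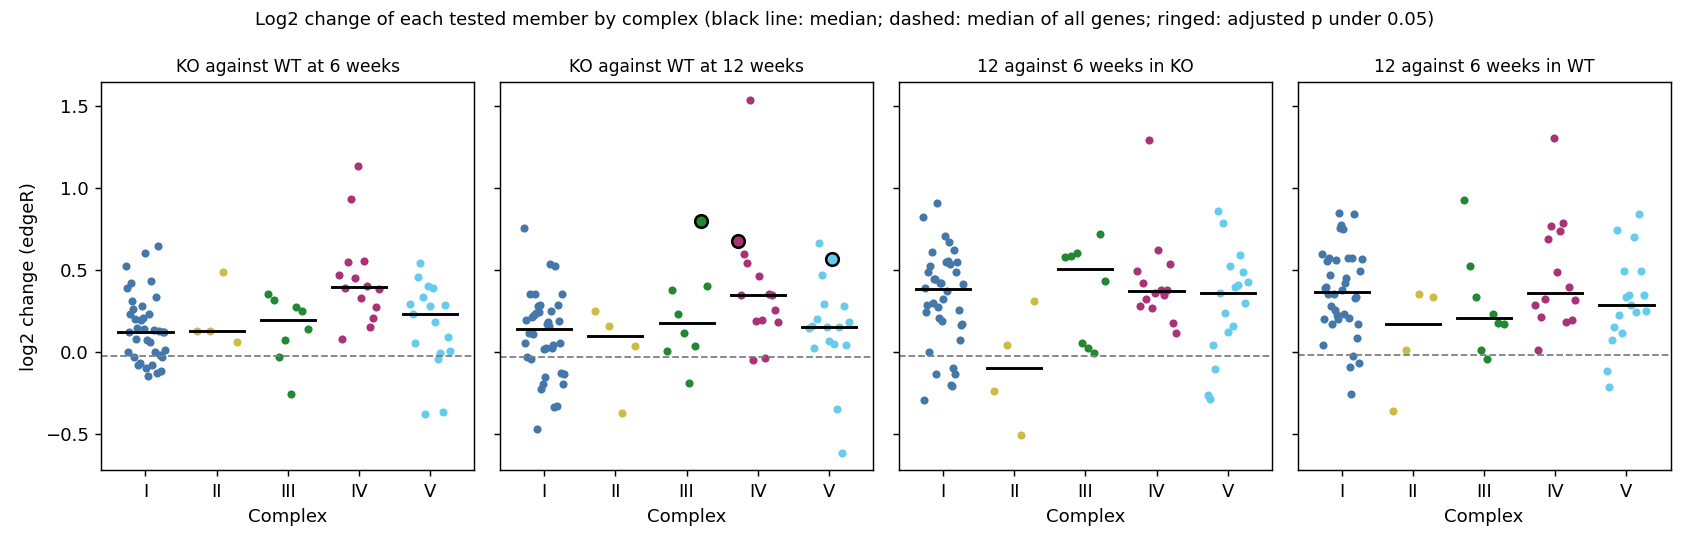
Log2 change (y axis, edgeR) of each of the 81 tested members by complex (x axis) in the 4 comparisons of groups; black lines are medians of a complex, the dashed line is the median of all genes tested, and ringed points passed at an adjusted p under 0.05. The ringed points are Uqcrh, Cox4i1 and Atp5j at 12 weeks, and the complex IV median is above that of every other complex in the comparison of KO with WT at either age.

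Complex IV carries the clearest single-gene result. Cox4i1, the main form of subunit 4, which takes part in the assembly and regulation of the complex, had 118, 114, 96.4 and 109 CPM at 6 weeks in WT and 167, 132, 140 and 169 in KO, then 132, 122, 136 and 160 at 12 weeks in WT and 220, 233, 196 and 231 in KO. The genotypes did not overlap at either age and the ages did not overlap in either genotype. At 12 weeks it rose by 0.68 ± 0.11 (log2 ± SE, adjusted p = 0.00173 by edgeR), and it passed in all 8 fits that left out 1 library of that comparison and in all 11 other settings. At 6 weeks its log2 change was 0.47 ± 0.11 (adjusted p = 0.0569 by edgeR), and it passed without the 12-week WT libraries 3 and 8 (adjusted p = 0.039). With age the log2 change was 0.49 ± 0.11 in KO and 0.29 ± 0.11 in WT. Neither passed with edgeR, and with DESeq2 the change in KO did (adjusted p = 0.00117). In the annotation of the older build GRCm38, Cox4i1 overlaps the neighbouring gene Emc8 on the opposite strand by 352 bases at their starts, and Gm20388 on its own strand by 5986 bases. Emc8 was also apart at 12 weeks, with 27.1 to 47.0 CPM in WT and 55.3 to 68.8 in KO, and overlapped at 6 weeks (42.0 to 57.8 and 42.0 to 70.4). No gene is listed under the name Gm20388 in the counts, so no level can be given for it. The strand setting of the counting is not given in the sources used here, so reads of the overlapping part cannot be told apart.

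The 2 forms of subunit 6A, which helps hold the complex IV dimer together, stood at 188 and 13.8 CPM per kb, and in both the 12-week KO libraries lay above the 12-week WT libraries. Cox6a1, the common form, had 69.5, 83.1, 93.9 and 65.2 CPM at 6 weeks in WT and 125, 98.6, 118 and 112 in KO, then 78.1, 88.2, 106 and 114 at 12 weeks in WT and 121, 159, 158 and 127 in KO. The genotypes were apart at both ages, with log2 changes of 0.55 ± 0.16 and 0.54 ± 0.16 that did not pass with edgeR (adjusted p = 0.211 and 0.0898). Cox6a2, the muscle form, had a mean of 4.12 ± 3.34 CPM at 6 weeks in WT and 7.66 ± 2.89 in KO, then 6.38 ± 3.77 at 12 weeks in WT and 19.4 ± 5.03 in KO. Its 12-week KO libraries (17.9, 26.7, 17.7 and 15.3 CPM) lay above all other 12 libraries, the highest of which had 11.7. Among members whose groups were apart at 12 weeks, its log2 change of 1.53 ± 0.60 was the largest, and it did not pass (adjusted p = 0.228 by edgeR).

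Other complex IV subunits were apart by genotype at one age only, and for none of them did the difference between the ages pass. Cox6b1, which faces cytochrome c, had 62.4 to 73.7 CPM in 6-week WT and 79.6 to 109 in 6-week KO, then 87.0 to 123 in 12-week WT and 97.5 to 121 in 12-week KO. Its log2 change was 0.45 ± 0.15 at 6 weeks and -0.05 ± 0.15 at 12 weeks, and 0.77 ± 0.15 with age in WT (adjusted p = 0.209 by edgeR), the smallest p of its complex in that comparison. Cox8a, the common form of subunit 8, was apart by genotype at 6 weeks only (54.2 to 60.0 CPM in WT, 63.0 to 82.3 in KO). Cox6c was apart at 12 weeks only (28.9 to 38.3 CPM in WT, 38.3 to 55.6 in KO, so by less than the rounding), and so was Cox7a2l, which is known as a factor that joins complexes III and IV and is no core subunit (59.2 to 95.9 and 97.2 to 116 CPM). Its relative Cox7a2 had 50.1 ± 10.5 CPM in 12-week WT and 48.8 ± 6.25 in 12-week KO, and Cox7b had a log2 change of 0.35 at 12 weeks. Ndufa4, counted with complex I by its name and known to be a subunit of complex IV, had log2 changes of 0.53 ± 0.20 with age in KO and 0.57 ± 0.20 in WT, with the ages apart in both.

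**Figure D3:**
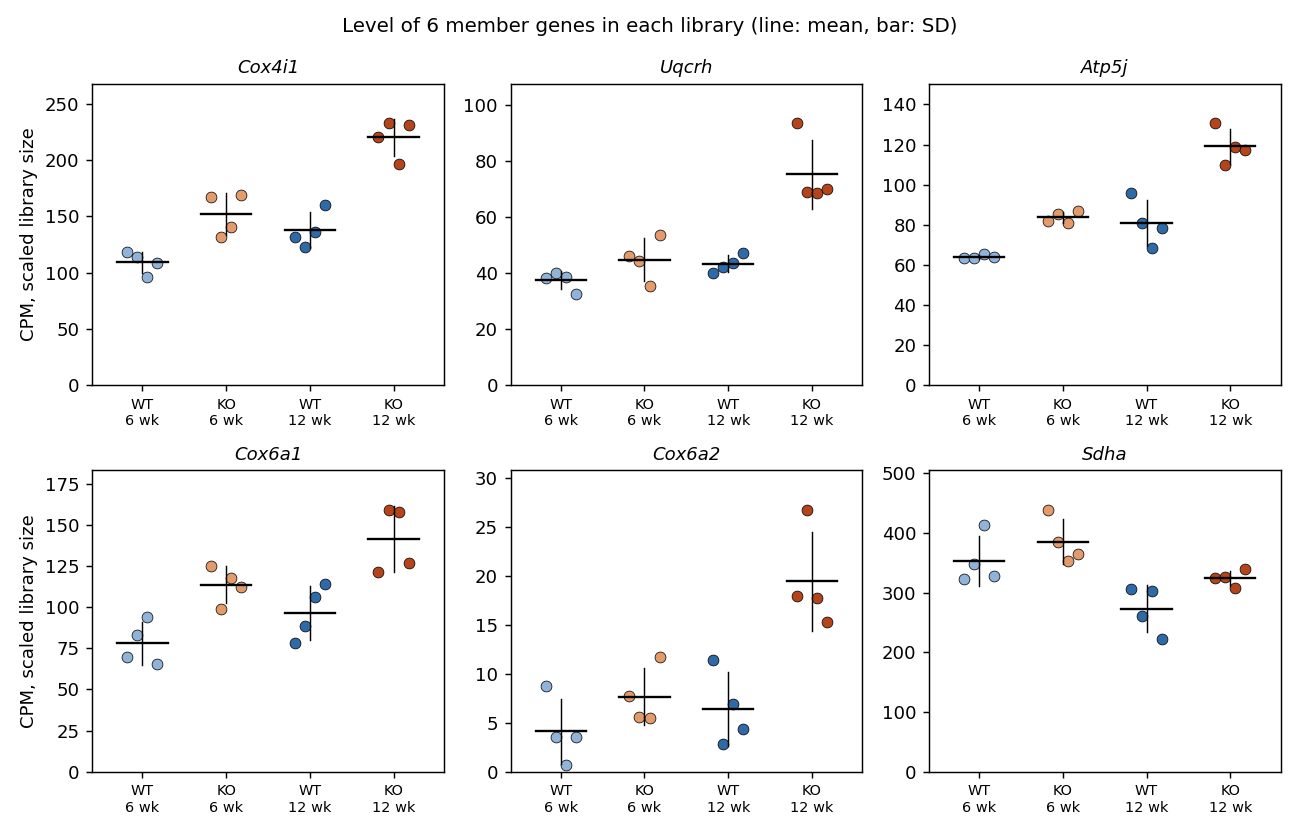
Level of 6 members in each library (CPM on scaled library sizes, y axes from 0), with the group mean as a line and the SD as a bar. In Cox4i1, Uqcrh, Atp5j and Cox6a2 all 4 libraries of 12-week KO lie above the other 12 (for Uqcrh from 68.3 CPM against at most 53.7), in Cox6a1 they overlap 6-week KO, and in Sdha both 12-week groups lie below the 6-week group of the same genotype.

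In complex III, Uqcrh, the hinge protein that bridges cytochrome c1 and cytochrome c, differed by genotype at 12 weeks. It had 38.3, 40.0, 38.6 and 32.6 CPM at 6 weeks in WT and 45.9, 44.2, 35.2 and 53.7 in KO, then 40.0, 42.3, 43.7 and 47.2 at 12 weeks in WT and 93.5, 68.9, 68.3 and 69.8 in KO. The genotypes overlapped at 6 weeks and were apart at 12 weeks, and 12-week KO library 1 was far above the other 3. It rose by 0.80 ± 0.17 at 12 weeks (adjusted p = 0.0137 by edgeR), and without that library by 0.72, still past the threshold. The call was lost with no filter (adjusted p = 0.0538), in a fit of the 8 libraries alone (0.0881), without the 12-week WT libraries 3 and 8 (0.0789) and without these and 12-week KO library 4 (0.0935), all by edgeR, with log2 changes of 0.82, 0.81, 0.85 and 0.91 in that order. At 6 weeks its log2 change was 0.25 ± 0.17, and the difference between the ages was 0.54 ± 0.23 (adjusted p = 1 by edgeR).

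The larger complex III proteins gave smaller values. Uqcrc1, a core protein and the most abundant member of the complex, had group means of 280 ± 41.4, 293 ± 66.2, 276 ± 42.7 and 299 ± 50.8 CPM in 6-week WT, 6-week KO, 12-week WT and 12-week KO, with overlap throughout. Uqcrc2, the other core protein, had log2 changes of -0.25 ± 0.16 at 6 weeks and -0.19 ± 0.16 at 12 weeks. Uqcrfs1, the Rieske iron-sulphur protein that takes electrons from ubiquinol, had 0.28 ± 0.19 and 0.04 ± 0.19. Uqcr10, a small subunit, had 30.9 to 43.1 CPM in 6-week WT and 48.2 to 88.5 in 12-week WT, apart, with a log2 change of 0.93 ± 0.26 with age in WT that was the largest among members apart in that comparison (adjusted p = 0.357 by edgeR). Between genotypes at 12 weeks Uqcr10 had 0.01 ± 0.25.

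In complex V, Atp5j, the coupling factor 6 subunit of the peripheral stalk that holds the catalytic head still, had little spread within the 6-week groups. It had 63.4, 63.4, 65.3 and 64.0 CPM at 6 weeks in WT and 82.1, 85.2, 80.9 and 86.9 in KO, then 96.0, 80.8, 68.2 and 78.1 at 12 weeks in WT and 131, 110, 119 and 117 in KO. No pair of groups overlapped in the 4 comparisons. It rose by 0.56 ± 0.12 at 12 weeks (adjusted p = 0.018 by edgeR) and had 0.39 ± 0.12 at 6 weeks (adjusted p = 0.265), 0.52 ± 0.12 with age in KO and 0.35 ± 0.12 in WT. The 12-week call was lost without the 12-week WT library 5_6 (adjusted p = 0.0502), with no filter (0.123), in a fit of the 8 libraries alone (0.149) and after a correction for transcript length (0.0586), all by edgeR, with log2 changes of 0.52, 0.59, 0.58 and 0.48 in that order. Atp5j overlaps Gabpa, the gene of the ETS factor named above, on the opposite strand by 701 bases at their starts in the GRCm38 annotation. Gabpa itself had 45.1 CPM as a mean at 6 weeks in WT and 52.2 in KO, then 47.7 at 12 weeks in WT and 48.7 in KO.

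Within the ATP synthase, head and stalk genes had different medians with age. The 5 head genes, Atp5a1, Atp5b, Atp5c1, Atp5d and Atp5e, had a median log2 change of -0.10 with age in KO and 0.08 in WT, and the 4 stalk genes, Atp5pb, Atp5h, Atp5j and Atp5o, had 0.36 and 0.34, without a test of that difference. Transcript length was not matched between head and stalk genes. Atp5b, the catalytic beta subunit, had 250 ± 9.47 CPM at 6 weeks in WT and 294 ± 12.9 in KO, then 214 ± 29.7 at 12 weeks in WT and 239 ± 36.0 in KO, apart by genotype at 6 weeks only. Atp5e, the small epsilon subunit, had log2 changes with age of the opposite sign to Atp5b (-0.29 in KO and -0.21 in WT). It had 16.7 to 21.7 CPM at 6 weeks in WT and 20.4 to 44.1 in KO, then 26.4 to 45.7 at 12 weeks in WT and 45.8 to 59.0 in KO, with log2 changes of 0.86 ± 0.25 in KO and 0.74 ± 0.25 in WT that did not pass (adjusted p = 0.256 and 0.49 by edgeR). Of the c-ring genes, Atp5g3 had log2 changes of 0.40 ± 0.21 at 6 weeks and 0.15 ± 0.21 at 12 weeks, Atp5g1 0.34 ± 0.30 and 0.47 ± 0.30, and Atp5g2 -0.37 ± 0.78 and 0.29 ± 0.77.

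Complex I, the largest, gave no call with edgeR, and DESeq2 called 1 of its members, Ndufc2, with age in KO (log2 0.57, adjusted p = 0.00409). Its 38 tested members had median log2 changes of 0.13 at 6 weeks and 0.14 at 12 weeks, with 27 above 0 at each age, and 0.38 in KO and 0.37 in WT with age, with 31 and 34 above 0. The 7 core subunits that carry the redox centres and the NADH and ubiquinone sites had medians of 0.07 and 0.09 with age, and the other 31 had 0.42 and 0.39. That difference was not tested, and transcript length was not matched here either. Ndufs8 and Ndufb10, the highest per kilobase, had log2 changes of -0.13 ± 0.15 and 0.24 ± 0.16 between genotypes at 12 weeks.

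Single complex I subunits pointed both ways. Ndufa9, an accessory subunit next to the ubiquinone site, was the 1 member lower in KO at 12 weeks at an unadjusted p under 0.05, with 166, 143, 177 and 187 CPM in 12-week WT and 106, 151, 111 and 119 in KO. The groups overlapped through KO library 2, and the log2 change of -0.46 ± 0.15 did not pass (adjusted p = 0.125 by edgeR). Ndufa1, a small accessory subunit needed for assembly, had 17.0 ± 3.93 CPM in 12-week WT and 28.6 ± 10.3 in 12-week KO. Ndufc2, another small one, had 46.6 to 58.4 CPM in 6-week KO and 70.3 to 79.7 in 12-week KO, apart, with a log2 change of 0.54 ± 0.14 (adjusted p = 0.21 by edgeR). Ndufa2 had the smallest p of the complex at 6 weeks, with 0.42 ± 0.17, and Ndufb3 in WT with age, with 0.76 ± 0.23. Ndufb1 and Ndufb2 had the largest changes among complex I members apart with age, 0.91 in KO and 0.85 in WT.

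Complex II, which also belongs to the tricarboxylic acid cycle, had 2 of 4 members above 0 with age in KO and 3 of 4 in WT, and its lower sum was led by Sdha. Sdha, its flavoprotein and catalytic subunit, had 324, 348, 413 and 328 CPM at 6 weeks in WT and 439, 384, 354 and 365 in KO, then 305, 261, 303 and 223 at 12 weeks in WT and 324, 326, 309 and 339 in KO. It was the 1 member whose libraries all lay lower at 12 than at 6 weeks, in both genotypes, with log2 changes of -0.36 ± 0.12 in WT and -0.24 ± 0.12 in KO that did not pass (adjusted p = 0.439 and 0.598 by edgeR). At 12 weeks its KO libraries lay above its WT libraries, with 0.25 ± 0.11. Sdhb, the iron-sulphur subunit, had log2 changes between 0.01 and 0.16 in the 4 comparisons of groups. Sdhc, a membrane anchor, had 48.1 ± 6.53 CPM in 6-week WT and 67.3 ± 5.65 in 6-week KO, apart, and 62.4 ± 13.7 in 12-week WT and 48.6 ± 12.8 in 12-week KO, overlapping. Its difference between the ages was the largest in size within the complex, -0.86 ± 0.29 (adjusted p = 1 by edgeR). Sdhd, the other anchor, had 0.06 ± 0.18 and 0.04 ± 0.18 between genotypes at 6 and 12 weeks.

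The higher levels with age went with transcript length, a property the choice of members did not use. Lengths came from GENCODE vM21 (median over a gene's principal transcripts), and the members were short, with a median of 755 nt against 2507 nt for all genes. All 28 members of 600 to 1000 nt had a log2 change above 0 in both genotypes with age, with medians of 0.42 in KO and 0.35 in WT, against 0.16 and 0.09 for the other genes of that length. Under 600 nt, 23 of 25 members were above 0 in KO and 25 in WT, with medians of 0.49 and 0.35, against 0.16 and 0.15. From 1000 to 2000 nt, 15 of 21 were above 0 in KO and 16 in WT. Their medians were 0.16 and 0.23, against 0.02 and 0.03 for other genes. Of the 7 members of 2000 to 4000 nt, 2 were above 0 in KO and 4 in WT, with medians of -0.24 and 0.04, against -0.09 and -0.08 for other genes. Across members, Spearman's rho between length and log2 change was -0.55 in KO and -0.46 in WT (81 genes measured in the same libraries, so not independent), against -0.13 and -0.10 across all genes with a length. Between genotypes it was -0.15 at 6 weeks and -0.27 at 12 weeks. Genes under 1000 nt other than members took 10.8% to 12.1% of counts in the 6-week libraries and 11.7% to 13.2% in the 12-week libraries. With a length trend fitted per library as an offset, chosen after seeing the data, the median of the members was 0.24 in KO and 0.25 in WT with age, 0.17 between genotypes at 6 weeks and 0.10 at 12 weeks. Cox4i1 and Uqcrh still passed at 12 weeks (adjusted p = 0.00437 and 0.0276 by edgeR).

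**Figure D4:**
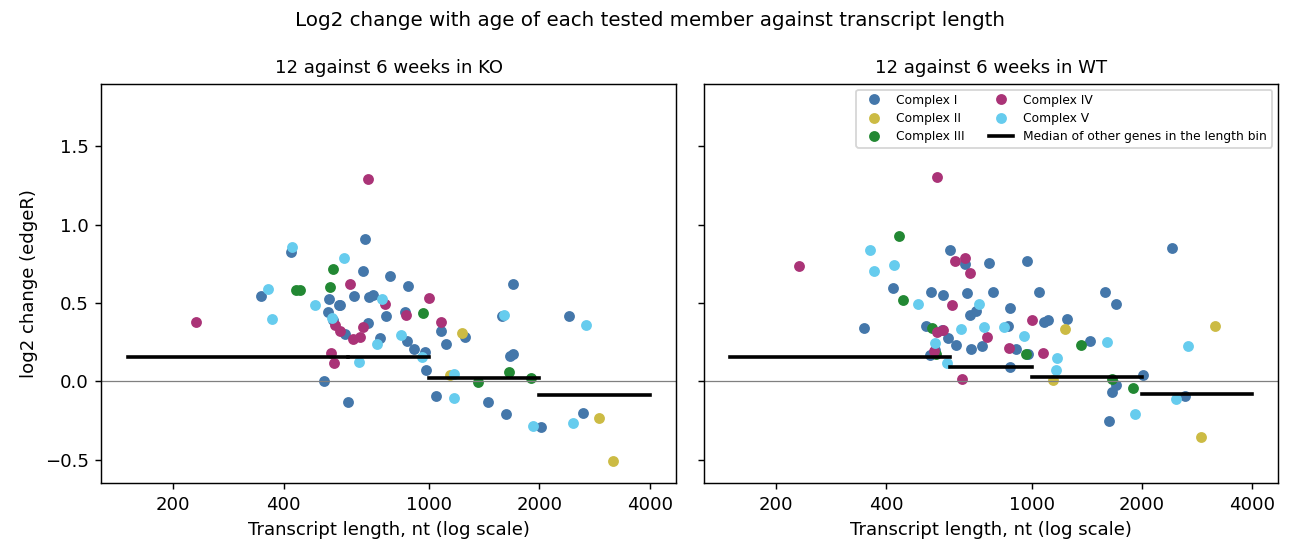
Log2 change with age (y axis, edgeR) against transcript length in nt (x axis, log scale) for the 81 tested members, coloured by complex, with the median of all other genes in 4 length bins as black lines. Members under 1000 nt lie mostly above the line of their bin, and in KO the members over 2000 nt lie on both sides of theirs.

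Around the chain, other mitochondrial genes encoded in the nucleus gave no call in any of the 5 comparisons with edgeR's quasi-likelihood test: 0 of 44 tested assembly factors, 0 of 13 genes of the tricarboxylic acid cycle, 0 of 19 genes of mitochondrial biogenesis and transcription, 0 of 77 mitochondrial ribosomal proteins and 0 of 4 chain proteins outside the name pattern (Ndufab1, Cyc1, Cycs and Hccs). Of all genes, 0.872% passed at 6 weeks, 2.98% at 12 weeks, 0.0234% with age in KO and 0.0117% in WT. In the difference between the ages 0.00585% passed. Over the 157 listed genes, unadjusted p was under 0.05 for 3 higher and 1 lower in KO at 6 weeks, 2 and 3 at 12 weeks, 9 and 5 with age in KO and 11 and 0 with age in WT. The same over all genes was 4.65% and 2.67%, 7.66% and 6.7%, 3.59% and 5.21%, and 3.09% and 4.35%. DESeq2 called 0 between genotypes at either age, 3 with age in KO (Coa3, Ndufaf4 and Mrpl32) and 1 in WT (Mrpl41). The assembly factors had medians of -0.01 at 6 weeks and -0.10 at 12 weeks between genotypes, where the members had 0.20 and 0.18. The tricarboxylic acid cycle genes had 0.15 and 0.06, the biogenesis genes -0.13 and 0.04, and the mitochondrial ribosomal proteins 0.04 and 0.00. With age the mitochondrial ribosomal proteins had 0.18 in KO and 0.24 in WT. Of the 7 tested mitochondrially encoded subunits, 4 rose in KO at each age (mt-Nd1, mt-Co1, mt-Nd4 and mt-Cytb). Of all genes, 0.872% passed at 6 weeks in either direction, and 2.03% passed at 12 weeks as higher in KO. With age in KO, 1 of the 7 rose (0.0234% of all genes passed). The mean ratio of mitochondrial to nuclear CPM in 6-week WT, 6-week KO, 12-week WT and 12-week KO was 0.386, 0.555, 0.452 and 0.665 in complex I. It was 1.66, 2.57, 2.03 and 3.48 in complex III, and 0.570, 0.719, 0.659 and 0.937 in complex IV. Of 86 cytoplasmic ribosomal protein genes, 4 rose in KO at 6 weeks (0.872% of all genes passed in either direction) and 11 at 12 weeks (2.03% passed as higher in KO). Their medians were 0.40 and 0.45.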

How the data were processed

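Per the labels, RNA of sorted microglia was made into libraries with a low-input NEBNext kit and sequenced on a NovaSeq. Tools named in the submitters' processing notes, without roles, are HTSeq 0.11.0, TopHat, cutadapt 2.10, FastQC 0.11.9, Picard 2.13.2 and SAMtools 1.10, and the build is GRCm39. Neither strand setting nor annotation release is given in the sources used here. The authors deposited 1 table of raw counts per gene for each of the 16 libraries. No molecular identifiers are named, so reads are not independent molecules.

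Genes were filtered with filterByExpr (minimum count 10), which left 17090 of the 29343 with any count, and scaled by TMM. edgeR 4.0.16 (R 4.3.3) fitted a robust quasi-likelihood model with group and sex over all 16 libraries. The common dispersion came to 0.421 (biological coefficient of variation 0.649). In each of 5 comparisons p was adjusted over all tested genes by Benjamini-Hochberg, at a threshold of 0.05. The steps were tested on simulated data. Groups are called apart where all 4 libraries of one lie above all 4 of the other in scaled CPM, without the sex term.

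The members and lists were chosen with earlier results of these data known. Genes named are every member past the threshold, per complex the 2 with the highest level per length and the smallest p of each comparison, all Sdh genes, Uqcrfs1, Atpif1 and the sets of alternative forms, and per comparison the 2 largest changes among members apart of at least 5 CPM. Other genes named were chosen after their values were seen. Lengths and overlaps of neighbours come from GENCODE vM21 on GRCm38 and promoters from RefSeq, both matched by name and never by coordinates of the counts.

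Alternatives were RLE, upper quartile and no scaling, DESeq2 1.42.0, no filter, no sex term, the 8 libraries alone, a replicate block, leaving out each library, and leaving out the 12-week WT libraries 3 and 8. Chosen after seeing the data were a length correction, adding pseudogene counts, and also leaving out the 12-week KO library 4. Sums were also taken on unscaled totals and as a mean of log2(CPM + 1).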

Additional observations from a re-analysis of the deposited data

Results flagged for a closer look

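Each of these values lay far from the other 3 of its group by Dixon's ratio at its critical value for 4 samples. The scan covered 120 groups of 4 libraries, and chance sets apart about 1 in 20. In Uqcrh, 12-week KO library 1 had 93.47 CPM and the next library 69.81. Cox6b1 had 73.7 CPM in 6-week WT library 1, with 63.47 next, and 87.0 in 12-week WT library 4, with 118.7 next. Ndufa2 had 74.58 CPM in 12-week KO library 3 (next 90.59), and Uqcrc2 had 79.22 in 6-week WT library 4 (next 95.56). Of the sums over a complex, complex II was low in 12-week KO library 3, with 661.3 CPM against 740.4 in the next, and complex III was low in 6-week KO library 2, with 551.6 against 682.3.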

How the results depend on the processing

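No sign turned among the log2 changes of the 13 members followed over the settings (those past the threshold or with the smallest p of a complex) in the comparisons where they were followed. In the difference between the ages, the unadjusted counts were 1 larger and 2 smaller, and over the settings they ran from 0 to 3 larger and 0 to 3 smaller. They became 2 and 1 without 12-week WT library 3 or 12-week KO library 4. The 3 members called at 12 weeks became 1 with no filter and 1 in a fit of the 8 libraries alone, Cox4i1 in both, and 2 to 3 when single libraries were left out. It was 2 without the 12-week WT libraries 3 and 8, Cox4i1 and Atp5j. DESeq2 called 3 members at 6 weeks, 5 with age in KO and 2 with age in WT, where edgeR called 0, and leaving out the 12-week WT libraries 3 and 8 gave 1 at 6 weeks, Cox4i1. The cause was not tested. Over all genes, the count at 12 weeks was 510, with 204 to 1157 in the other settings, and at 6 weeks 149, with 114 to 360, both highest with DESeq2; leaving out 1 library gave 328 to 463 and 82 to 100. With age all genes called were 4 in KO and 2 in WT, and 0 to 249 and 0 to 194 in the other settings. With the replicate block, 0 members passed at 6 weeks and 0 with age in KO, and 114 genes in all passed at 6 weeks. Same-numbered libraries had correlations of -0.0231 to 0.0705, and the best partner often had another number. At 6 weeks the same-numbered WT and KO libraries also shared the sex label. With 4 libraries per group these values cannot decide whether the numbers mark pairs. The 12-week WT numbers (3, 4, 5_6, 8) allow no block. Depth was lowest in 12-week KO.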
